A study of Homo sapiens with 8 samples.

Results

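The genes described are 32 lysosomal enzymes and membrane proteins, taken by gene symbol from the platform annotation, with the cathepsins B to Z left out. A gene entered the tests through its brightest probe among those above 5.9, a level just over background, on 2 or more arrays. Of the 32 genes, 27 passed, out of 8830 genes and 14644 probes that passed in all. MCOLN1, HEXA, SGSH and TFEB had a probe that did not pass, and ACP5 had no probe annotated to it alone. At the edge of this filter, the second-highest array read 6.05 for ARSA and 6.02 for ACP2, which passed, and 5.84 for MCOLN1, which did not.

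Kasumi-1 is an established line of human acute myeloid leukaemia whose t(8;21) translocation fuses RUNX1, a transcription factor of blood cells, to the corepressor gene RUNX1T1 (ETO). All cells were Kasumi-1 and received 200 nM siRNA by electroporation: a mismatch control (siMM) or an siRNA to the RUNX1/ETO fusion transcript (siRE). RNA was taken at 48 and 96 h, after 1 electroporation, and at 168 and 240 h, 72 h after the second and the third one. There is 1 Illumina bead array per siRNA and time, 8 in all, so each arm of 4 arrays spans the 4 times and no time has a replicate of its own. The labels do not say whether the times of an arm were separate cultures, and a p-value therefore measures the spread of the siRNA effect between these arrays. All levels printed are normalized by the authors and lie on a log scale read here as log2, and a fold holds only if that scale is plain log2. In such bulk RNA fewer cells of a type and less RNA per cell cannot be told apart.

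The lysosome is the acidic compartment in which cells break down proteins, glycans and lipids. Its hydrolases are made in the endoplasmic reticulum and are mostly tagged with mannose-6-phosphate in the Golgi for delivery. The V-ATPase pumps protons to keep the lumen acidic, and heavily glycosylated membrane proteins such as LAMP1 and LAMP2 line the inner face. TFEB, a basic helix-loop-helix factor held in the cytoplasm by mTORC1, switches on many of these genes through a promoter motif named CLEAR. In the myeloid lineage lysosomes and related granules are built up as cells mature.

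The targeted transcript was lower in the siRE arm, with RUNX1T1 at 8.87 ± 0.26 in siMM and 7.48 ± 0.26 in siRE (SD, n = 4 arrays each), a difference of -1.38 (SE 0.13, limma adjusted p = 0.000197). Of the Kasumi-1 markers CD34, KIT, MPO and RUNX1T1, all 4 were above background on all 8 arrays. Their mean level ran from 11.31 to 11.56 over the siMM arrays and from 10.17 to 10.93 over the siRE arrays, with CD34 lower on average (difference -1.87, limma adjusted p = 0.00958). KIT and MPO stood at -0.13 and -0.11 (limma adjusted p = 0.662 and 0.648). The lower mean therefore came mostly from CD34 and from RUNX1T1, the target of the siRNA. Of 5 macrophage markers, CD163, MSR1, MRC1 and MARCO were above background on 0 arrays. The fifth, CD68, was above background on all 8 arrays and higher in siRE at each of the 4 times (difference 0.49, limma adjusted p = 0.086). With CD68 the list averaged 5.93 to 6.16 in siMM and 5.77 to 6.13 in siRE, an average mostly of values below background.

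Over the 4 times, 4 lysosomal genes rose in siRE: LAPTM5, LAMP2, GRN and TPP1. None of the 27 fell past the threshold. Of all tested probes, 6.07% passed, 3.27% as higher and 2.8% as lower (limma adjusted p under 0.05). Most of the other genes stood a little higher in siRE: 19 of the other 23 mean differences were above 0. Among all 27 it was 23. Over all tested genes with 1 probe each, 3812 of 8830 were above 0, and over all tested probes 6720 of 14644. The median of the 27 was 0.31, against -0.03 over all tested probes. At an unadjusted p under 0.05, 14 genes were higher and 1 was lower, beside 10% and 12.7% of all tested probes. With the 4 genes that passed left out, the median of the other 23 was 0.24. The genes were picked with results of these data known, so these counts describe the list and test nothing about it.

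**Figure D1:**
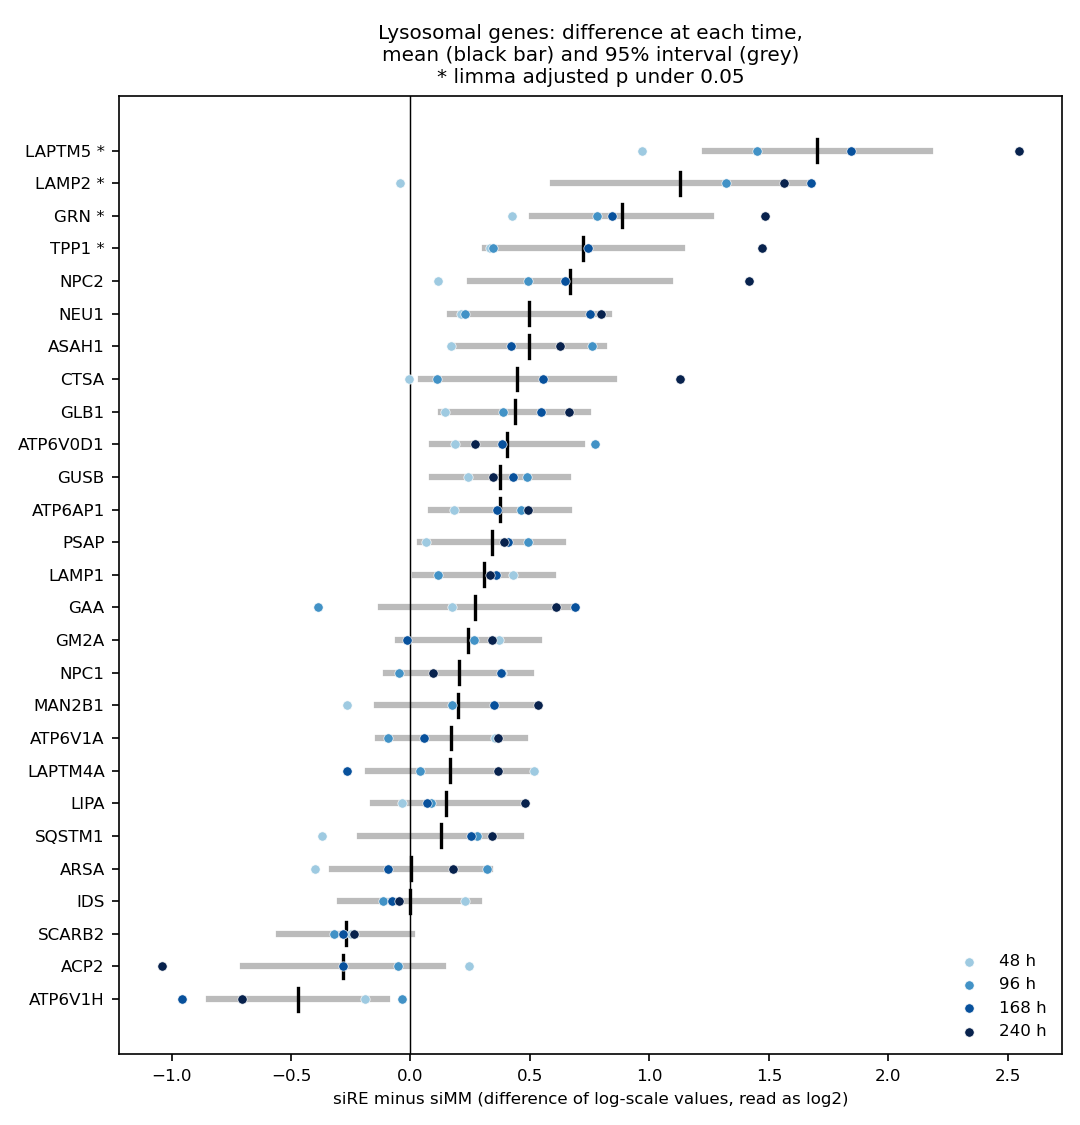
siRE minus siMM (log scale, horizontal axis) for each of the 27 tested genes at 48, 96, 168 and 240 h (points, light to dark blue), with the mean over the 4 times (black bar) and the 95% interval of limma (grey). LAPTM5 lies farthest to the right with a mean of 1.70 and ATP6V1H farthest to the left with -0.47, and asterisks mark the 4 genes with a limma adjusted p under 0.05.

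Among the membrane proteins, LAPTM5 moved most. It is a multi-spanning lysosomal protein of blood cells that limits surface receptors of lymphocytes. LAPTM5 (ILMN_1772359, chromosome 1) read 8.07, 8.57, 8.45 and 8.05 in siMM and 9.04, 10.02, 10.30 and 10.60 in siRE at 48, 96, 168 and 240 h. Every siRE array lay above every siMM array, which 5.01% of tested probes share. The mean difference was 1.70 (SE 0.21, limma adjusted p = 0.00101), which is 3.25-fold. Its control arm went back by 240 h to the 48 h level while the knockdown arm stood higher at each later time, so the difference was 0.97, 1.45, 1.84 and 2.55. The call held in all 14 alternative analyses (limma adjusted p at most 0.0231).

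LAMP2 (ILMN_1673282, chromosome X), a major glycoprotein of the lysosome membrane whose loss causes Danon disease, read 9.37, 9.18, 9.16 and 9.29 in siMM. In siRE it read 9.32, 10.49, 10.84 and 10.86. The 2 arms met at 48 h and were apart from 96 h on. The mean difference was 1.13 (SE 0.24, limma adjusted p = 0.0201), or 2.19-fold. This call ended without the 96 h arrays (1.07, limma adjusted p = 0.127) or those of 168 h (0.95, limma adjusted p = 0.158). The same happened in a robust fit whose prior followed the intensity (limma adjusted p = 0.0645), and when values under 5.9 were raised to it (limma adjusted p = 0.084).

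LAMP2 is read by 5 further probes, and all 5 passed (differences 0.88 to 1.26, limma adjusted p 0.00137 to 0.032). At 48 h these 5 stood at 0.19 to 0.73, where the brightest probe stood at -0.04. For ILMN_1659753 siMM read 8.68, 8.59, 8.94 and 8.75 and siRE read 9.38, 9.74, 10.50 and 10.38, so that its arms did not meet even at 48 h. The transcript of LAMP2 ends in 1 of several alternative last exons, which give proteins LAMP-2A, LAMP-2B and LAMP-2C. By the accessions in the platform annotation, ILMN_1673282 and ILMN_2243687 belong to the LAMP-2A transcript, and ILMN_1659753, ILMN_1752351 and ILMN_2279961 to that of LAMP-2B. Both groups of probes passed, at 1.13 and 1.06 for the first and at 1.26, 0.89 and 0.92 for the second. No source used here says whether each probe reads 1 transcript alone.

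**Figure D2:**
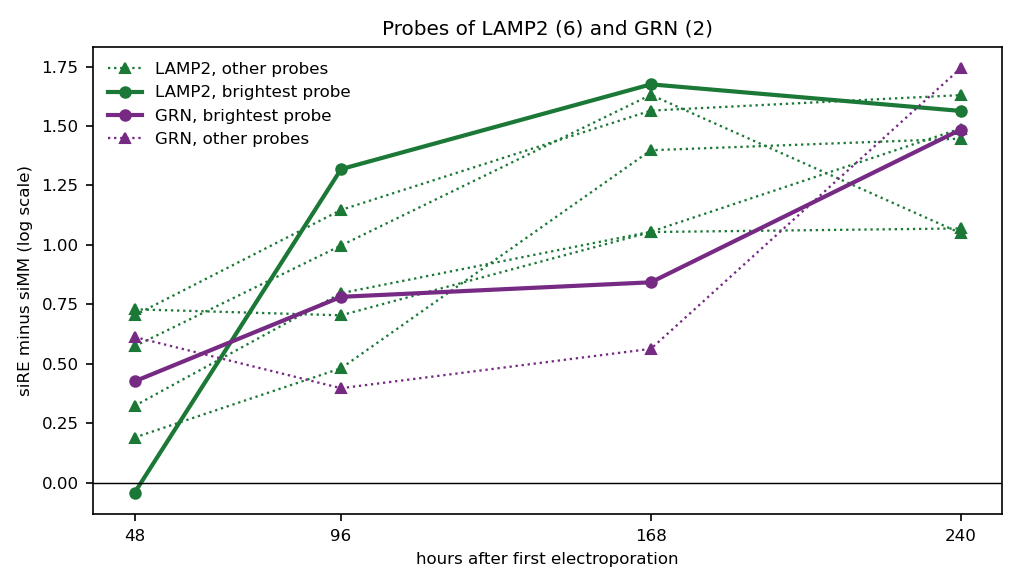
siRE minus siMM (log scale, vertical axis) by hours after the first electroporation for the 6 probes of LAMP2 (green) and the 2 of GRN (purple), with the brightest probe of each gene as a solid line. At 48 h the brightest LAMP2 probe lies at -0.04, below the other 5, and at 240 h all 8 probes lie at 1.05 or higher.

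The other membrane proteins did not pass. LAMP1, the close relative of LAMP2, read 10.17 ± 0.14 in siMM and 10.48 ± 0.15 in siRE (difference 0.31, limma adjusted p = 0.192), with values between 0.12 and 0.43 at the 4 times. SCARB2 (LIMP-2), the receptor that carries glucocerebrosidase to lysosomes, was lower at each of the 4 times within a narrow range, from -0.32 to -0.23, and its mean of -0.27 did not pass (limma adjusted p = 0.232, 95% interval -0.55 to 0.01). LAPTM4A, a relative of LAPTM5 found in most tissues, stood at 0.16, with values from -0.26 to 0.52. MCOLN1, a lysosomal calcium channel, was above background on 1 array, siMM at 48 h (6.21), and its siRE arrays read 5.33 to 5.80.

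Of the proteins that carry or activate, GRN passed. GRN (ILMN_1724250, chromosome 17) encodes progranulin, a secreted protein that is cut into granulins in lysosomes and whose loss causes frontotemporal dementia or neuronal ceroid lipofuscinosis. It read 8.89, 9.39, 9.69 and 9.53 in siMM and 9.32, 10.17, 10.53 and 11.02 in siRE. Within each time siRE was the higher array, but the arms overlapped because siMM also stood higher after 48 h than at 48 h. The difference of 0.88 (SE 0.17, limma adjusted p = 0.0118), or 1.84-fold, ended as a call without the 96 h arrays (0.92, limma adjusted p = 0.0702), without those of 168 h (0.90, limma adjusted p = 0.0804), and in a fit with no term for time (limma adjusted p = 0.125). A dimmer GRN probe gave 0.83 (limma adjusted p = 0.0371).

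PSAP, the precursor of the saposins that help enzymes reach sphingolipids, read 10.75, 10.85, 11.17 and 10.95 in siMM and 10.82, 11.34, 11.58 and 11.35 in siRE. Its arms overlapped, with a difference of 0.34 (limma adjusted p = 0.166), and a second PSAP probe gave 0.40 (limma adjusted p = 0.126). GM2A, the activator of ganglioside GM2 breakdown, stood at 0.24 (limma adjusted p = 0.316).

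TPP1 (ILMN_1729234, chromosome 11), a peptidase that removes tripeptides and is lost in a childhood neuronal ceroid lipofuscinosis, read 8.29, 8.89, 9.15 and 8.77 in siMM. Its siRE arrays read 8.63, 9.24, 9.90 and 10.24. The siRE array was the higher one at each time, and the arms overlapped. The difference of 0.72 (SE 0.19, limma adjusted p = 0.0466), or 1.65-fold, lay just past the threshold. It ended as a call without the 96, 168 or 240 h arrays (0.85, 0.72 and 0.47, limma adjusted p = 0.0984, 0.205 and 0.118). With no term for time it was lost too (limma adjusted p = 0.212), as with values under 5.9 raised to it (limma adjusted p = 0.102) and with probes averaged per gene (limma adjusted p = 0.0513).

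**Figure D3:**
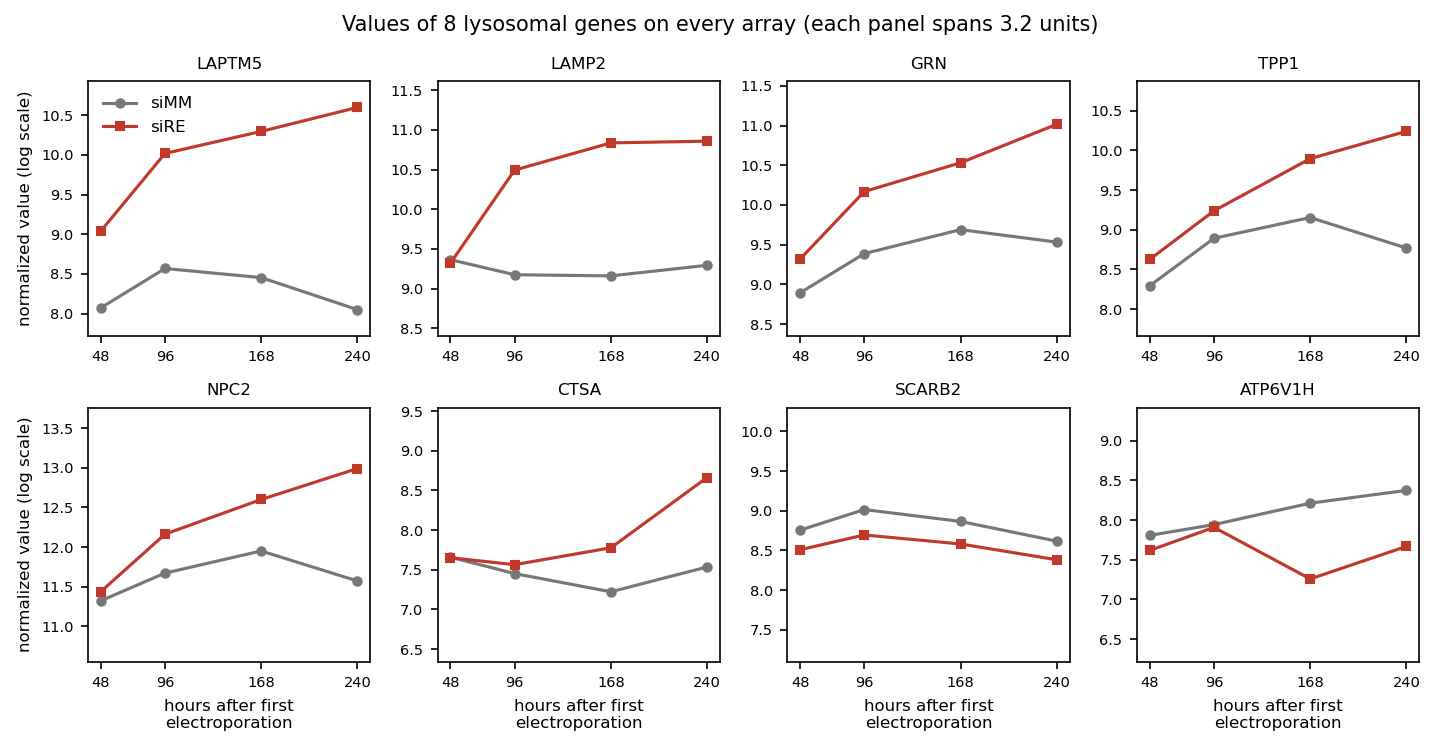
Normalized values (log scale) of 8 lysosomal genes on all 8 arrays, by hours after the first electroporation, with siMM in grey and siRE in red; 1 array stands behind each point and each panel spans 3.2 units. The arms of LAPTM5, LAMP2, GRN, TPP1, NPC2 and CTSA are 1.13 to 2.55 apart at 240 h with siRE higher, and those of SCARB2 and ATP6V1H lie the other way.

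Among the other enzymes of lipids, phosphate esters and peptides, ASAH1, acid ceramidase, read 6.95, 6.64, 7.03 and 7.07 in siMM and 7.12, 7.40, 7.45 and 7.70 in siRE. Its arms did not overlap, and its difference of 0.49 missed the threshold (limma adjusted p = 0.0684, 95% interval 0.18 to 0.81). A dimmer ASAH1 probe, above background on 2 siRE arrays alone, gave 0.50 (limma adjusted p = 0.0998). The arms of that probe overlapped, and it stood at -0.01 at 96 h. CTSA, the protective protein that stabilises beta-galactosidase and neuraminidase, read 7.66, 7.45, 7.22 and 7.54 in siMM and 7.65, 7.56, 7.78 and 8.66 in siRE. The CTSA arms were alike at 48 h and stood 1.13 apart at 240 h (mean difference 0.45, limma adjusted p = 0.178). LIPA, acid lipase, stood at 0.15 (limma adjusted p = 0.559). ACP2, a lysosomal acid phosphatase, was above background on 1 array of each arm.

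None of the 7 tested glycosidases and sulfatases passed, and 6 of them had mean differences above 0. NEU1, the neuraminidase that acts in a complex with CTSA and GLB1, read 7.72, 7.95, 7.83 and 7.93 in siMM and 7.93, 8.18, 8.58 and 8.72 in siRE (difference 0.50, limma adjusted p = 0.0809). GLB1, beta-galactosidase, read 9.73, 9.84, 9.71 and 9.81 in siMM and 9.87, 10.22, 10.26 and 10.47 in siRE, with no overlap (0.44, limma adjusted p = 0.0939). The 3 partners of this complex were each short of the threshold, and CTSA stood at 0.22 without the 240 h arrays (limma adjusted p = 0.534). A second GLB1 probe gave 0.22 (limma adjusted p = 0.358).

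GUSB, beta-glucuronidase, read 9.12, 9.45, 9.47 and 9.35 in siMM and 9.36, 9.94, 9.90 and 9.69 in siRE (0.37, limma adjusted p = 0.117); its arms overlapped. GAA, the acid alpha-glucosidase lost in Pompe disease, stood at 0.27 and MAN2B1, alpha-mannosidase, at 0.20 (limma adjusted p = 0.403 and 0.479). ARSA and IDS, sulfatases of sulfatide and of heparan and dermatan sulfate, had mean differences of 0.0015 and -0.0032 with 95% intervals of -0.33 to 0.33 and -0.30 to 0.29. HEXA and SGSH were above background on 0 arrays.

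NPC2 and NPC1 pass cholesterol out of the lysosome in turn, NPC2 in the lumen and NPC1 in the membrane. NPC2 read 11.32, 11.67, 11.95 and 11.57 in siMM and 11.44, 12.16, 12.60 and 12.99 in siRE. Its siRE array lay within the siMM range at 48 h and above it at the later times, and the difference of 0.67 missed the threshold (SE 0.19, limma adjusted p = 0.0648). It passed without the 48 h arrays (0.85, limma adjusted p = 0.0256), over probes above background on all 8 arrays (limma adjusted p = 0.0246) and in the robust fit with an intensity-dependent prior (limma adjusted p = 0.0309). Without the 240 h arrays the NPC2 difference was 0.42 (limma adjusted p = 0.184). NPC1 stood at 0.20 (limma adjusted p = 0.419), with values between -0.05 and 0.38.

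The proton pump subunits did not move one way. ATP6V0D1, a subunit of the membrane part, read 7.94, 7.63, 7.72 and 8.07 in siMM and 8.12, 8.40, 8.10 and 8.35 in siRE, without overlap (0.40, limma adjusted p = 0.126). ATP6AP1, an accessory subunit, read 9.56, 9.83, 9.83 and 9.90 in siMM and 9.74, 10.30, 10.19 and 10.39 in siRE (0.37, limma adjusted p = 0.123), with overlapping arms. ATP6V1H, a regulatory subunit of the cytoplasmic part, read 7.81, 7.94, 8.21 and 8.37 in siMM and 7.62, 7.91, 7.26 and 7.67 in siRE. It was the lowest of the 27 genes by mean difference, at -0.47 (limma adjusted p = 0.128), or -0.31 without the 168 h arrays, and its dimmer probe stood at -0.05. ATP6V1A, the catalytic subunit, stood at 0.17 (limma adjusted p = 0.501).

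TFEB itself was not above background on any array, with 5.22, 5.49, 5.11 and 5.42 in siMM and 5.05, 5.22, 5.09 and 5.31 in siRE, so its level cannot be compared. SQSTM1 (p62), the autophagy cargo receptor that lysosomes degrade, read 8.96, 8.83, 9.18 and 9.02 in siMM and 8.59, 9.11, 9.43 and 9.36 in siRE (0.13, limma adjusted p = 0.666). Its siRE array was the lower one at 48 h and the higher one at the other 3 times.

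The differences were wider at the later times. With 1 array against 1 these are given without a test. At 48 h the 27 genes had a median of 0.18, with 0 genes higher by 1 or more (0.594% of tested probes) and 0 lower by as much (0.273%). At 96 h the median was 0.27 and LAPTM5 and LAMP2 were higher by 1 or more, which 1.15% of tested probes were, with 0.56% lower. The median at 168 h was 0.38, and the same 2 genes stood out, against 1.99% of probes higher and 1.64% lower. At 240 h it was 0.39, with 6 genes higher by 1 or more, LAPTM5, LAMP2, GRN, TPP1, NPC2 and CTSA, against 3.51% of probes. ACP2 alone of the 27 was lower by as much, against 4.95% of probes, but its siRE array of 240 h (4.98) was below background and its siMM array (6.02) just above, so the size of that difference is not measured. The median of all tested probes stayed between -0.06 and -0.01 at these times.

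**Figure D4:**
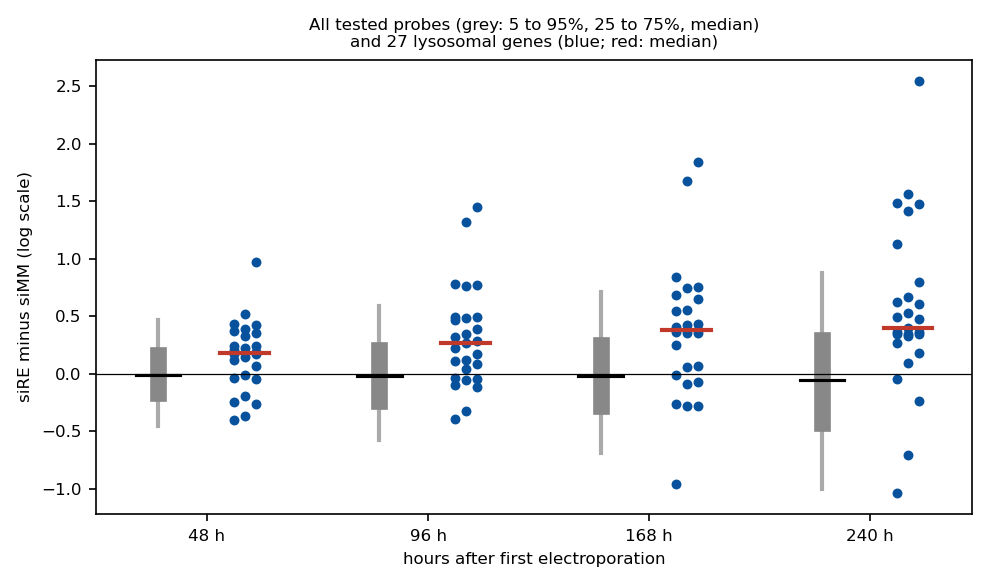
siRE minus siMM (log scale, vertical axis) at each time for the 27 tested lysosomal genes (blue points, red bar for their median) beside all 14644 tested probes (grey, thin line from the 5th to the 95th percentile, thick line from the 25th to the 75th, black bar the median). The median of the 27 genes goes from 0.18 at 48 h to 0.39 at 240 h, while that of all probes goes from -0.01 to -0.06.

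A test of the change with day called 1 of the 27 genes, LAPTM5, whose difference grew by 0.189 per day (SE 0.040, limma adjusted p = 0.0471), where 0.949% of tested probes passed in either direction. A miss in this test does not show that a difference held steady. The number of electroporations also rose over the time course, so a change with day cannot be told apart from one with repeated electroporation. This call ended without the 48, 96 or 240 h arrays (limma adjusted p = 0.168, 0.124 and 0.455), at slopes between 0.171 and 0.195 per day. At an unadjusted p under 0.05, 7 genes had a rising difference (6.88% of probes) and 1, ACP2, a falling one (9.7%), formed from values of which 6 of 8 lay below background. The 7 were LAPTM5, LAMP2, GRN, TPP1, NPC2, CTSA and MAN2B1. In siMM alone, 0 of the 27 genes and 0% of tested probes had a slope on day past the threshold by limma, and 0 of the 27 genes had one at an unadjusted p under 0.05 (1.85% of probes). Of the 27 genes, 12 were higher in siRE at all 4 times and 2, SCARB2 and ATP6V1H, lower, beside 13.5% and 16.7% of tested probes.

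The promoter letters of genes called higher are set here beside those of LAMP1 and GAA, at 0.31 and 0.27 and not called, and of MCOLN1, not tested. Motifs were chosen since CLEAR is the motif through which TFEB acts and RUNX1/ETO binds DNA through the RUNX1 part. RefSeq windows of the 250 bases before the gene start (build GRCh38.p14) matched 24 of the 32 genes by symbol. The motifs searched on both strands were CACGTG, the 10-letter CLEAR motif, which holds CACGTG at its centre, CLEAR with at most 1 mismatch, and, for RUNX, TGTGGT and TGCGGT. The search with 1 mismatch was added after the sequences had been seen. Capitals mark every letter covered by a match.
LAPTM5, chr1:30757775-30758024, minus strand: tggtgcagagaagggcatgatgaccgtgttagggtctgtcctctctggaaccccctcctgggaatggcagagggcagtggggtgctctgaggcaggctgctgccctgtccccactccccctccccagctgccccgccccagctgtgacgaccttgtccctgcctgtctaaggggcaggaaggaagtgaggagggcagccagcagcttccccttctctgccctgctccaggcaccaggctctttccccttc
GRN, chr17:44345052-44345301, plus strand: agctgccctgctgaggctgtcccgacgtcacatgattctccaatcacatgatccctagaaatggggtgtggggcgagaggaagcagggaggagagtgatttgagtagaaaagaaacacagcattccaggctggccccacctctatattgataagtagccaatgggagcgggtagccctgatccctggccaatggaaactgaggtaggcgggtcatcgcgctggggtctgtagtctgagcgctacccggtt
TPP1, chr11:6619423-6619672, minus strand: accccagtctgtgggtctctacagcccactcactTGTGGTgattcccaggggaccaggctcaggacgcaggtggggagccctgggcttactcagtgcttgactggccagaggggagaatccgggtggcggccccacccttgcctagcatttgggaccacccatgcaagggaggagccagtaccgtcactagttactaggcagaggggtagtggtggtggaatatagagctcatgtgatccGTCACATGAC
LAMP1, chr13:113296989-113297238, plus strand: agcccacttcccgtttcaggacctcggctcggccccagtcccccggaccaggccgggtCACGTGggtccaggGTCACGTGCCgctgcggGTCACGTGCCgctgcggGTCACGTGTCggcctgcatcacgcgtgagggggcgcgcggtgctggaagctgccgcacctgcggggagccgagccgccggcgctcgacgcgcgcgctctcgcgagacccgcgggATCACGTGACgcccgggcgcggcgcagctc
GAA, chr17:80101331-80101580, plus strand: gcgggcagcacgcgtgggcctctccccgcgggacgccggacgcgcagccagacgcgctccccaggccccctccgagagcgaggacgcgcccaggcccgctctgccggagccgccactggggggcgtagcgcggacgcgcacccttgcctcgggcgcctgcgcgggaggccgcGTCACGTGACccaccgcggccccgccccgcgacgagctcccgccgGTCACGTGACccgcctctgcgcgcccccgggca
MCOLN1, chr19:7522374-7522623, plus strand: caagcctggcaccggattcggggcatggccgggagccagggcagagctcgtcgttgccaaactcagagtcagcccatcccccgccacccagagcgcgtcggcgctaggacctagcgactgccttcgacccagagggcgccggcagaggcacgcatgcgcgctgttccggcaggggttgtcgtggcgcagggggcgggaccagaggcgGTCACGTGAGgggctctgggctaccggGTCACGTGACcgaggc

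CACGTG was in 6 of the 24 windows (LAMP1, MCOLN1, CTSA, GAA, NEU1 and ATP6V0D1), against 6.49% of all 27305 RefSeq windows and 9.62% of those of tested genes. LAMP1 had 5 matches, the first 192 bases before the start, and GAA had CLEAR at 78 and 33 bases before it. CLEAR itself was in GAA and MCOLN1, in 0.33% of all windows and in 0.788% of those of tested genes. Of the 18 windows of genes tested and not called, 5 held CACGTG and 1 held CLEAR. The printed windows of LAMP1 and GAA therefore do not stand for the uncalled genes. With at most 1 mismatch CLEAR was in 7 windows, those of LAMP1, MCOLN1, CTSA, GAA, GUSB, TPP1 and ATP6V0D1. It was then in 1.92% of all windows and in 3.71% of those of tested genes. Of the genes that rose, LAPTM5 and GRN had none of these letters in the window, and LAMP2 had no window matched. TPP1 had a match with 1 mismatch in the last 10 bases before the start and TGTGGT 216 bases before it. TGTGGT was in 10.9% of all windows and in 7.8% of those of tested genes. Among the 24, the window of SCARB2 alone held TGCGGT (5.69% of all and 8.59% of those of tested genes). CLEAR is a motif already tied to lysosomal genes, so its share among the 24 windows tests nothing about these data. A match is a description of letters and not a bound site.

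Lists of related genes were read in the same fit. The counts of each list stand beside 3.27% of all tested probes higher and 2.8% lower (limma adjusted p under 0.05). The list medians stand beside -0.03 over all tested probes. Of 24 tested lysosomal hydrolases outside the 32 genes, 3 rose and 0 fell (median 0.20). They were GLA, alpha-galactosidase A, by 0.81 (limma adjusted p = 0.0206), MAN2B2, a mannosidase, by 0.74 (limma adjusted p = 0.0309), and PRCP, a carboxypeptidase, by 0.73 (limma adjusted p = 0.0186). MAN2B2 read 8.73 to 8.83 over the siMM arrays and 8.93, 9.35, 9.77 and 9.99 in siRE. Of 7 cathepsins, 2 rose: CTSG, a granule serine protease, by 2.26 (limma adjusted p = 9.97e-05) and CTSD, an aspartic protease, by 0.94 (limma adjusted p = 0.00401), with a list median of 0.10. Of 12 other V-ATPase subunits 0 passed in either direction (limma; 2 higher at an unadjusted p under 0.05; median 0.12). The calls of GLA, MAN2B2 and PRCP ended without the 96 h or the 168 h arrays (limma adjusted p between 0.0524 and 0.201), those of GLA and MAN2B2 also without the 240 h arrays or with values below background set to 5.9, and that of MAN2B2 without the time block.

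The sorting genes split. GNPTAB, which makes the mannose-6-phosphate tag, fell by 0.79 (difference -0.79, SE 0.13, limma adjusted p = 0.00549): it read 9.19, 9.43, 8.94 and 9.33 in siMM and 8.50, 8.67, 8.26 and 8.32 in siRE. AP1S2, a small subunit of the AP-1 clathrin adaptor, rose by 1.66 (SE 0.14, limma adjusted p = 0.000118), from 6.16, 7.12, 7.18 and 7.01 to 7.73, 8.56, 8.96 and 8.84. The arms of neither gene overlapped. At 48, 96, 168 and 240 h GNPTAB stood at -0.69, -0.76, -0.68 and -1.01. AP1S2 stood at 1.57, 1.44, 1.78 and 1.83. The other 10 tested genes of this list did not pass (median of all 12, 0.01).

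Of 20 tested genes of the mTORC1 machinery on lysosomes, none of them a TFEB-family factor, RPTOR, the raptor subunit of mTORC1, fell (difference -1.08, SE 0.18, limma adjusted p = 0.00543) and 0 rose (median -0.05). It read 7.34, 7.78, 7.07 and 7.58 in siMM and 6.76, 6.55, 6.28 and 5.87 in siRE, and lost its call without the 96 h arrays (limma adjusted p = 0.0599). Of 27 autophagy genes 3 rose and 0 fell (median 0.07). WIPI1, a protein of the forming autophagosome, was below background on every siMM array and at least 1.56-fold higher in siRE (limma adjusted p = 0.000945, or 0.0803 with values below background set to 5.9). It entered the tests through its siRE arrays alone, so its call among the 3 is not independent of the filter. ATG16L2 rose by 1.27 (limma adjusted p = 0.0113) and ATG4C, a protease of the ATG8 family, by 0.53 (limma adjusted p = 0.0378). The call of ATG16L2 ended in 3 of 14 alternatives and that of ATG4C in 6, each among them without the 96 h or the 168 h arrays.

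Of 22 other proteins of the lysosome membrane or of its biogenesis, 2 rose and 1 fell (median 0.10). LITAF, a late endosome protein, was below background on every siMM array and on the siRE array of 48 h. Its siRE level was higher by at least 1.93-fold (limma adjusted p = 0.0228), a call that ended in 5 of 12 alternatives, among them without the time block. LITAF also entered the tests through its siRE arrays alone, so this call is not independent of the filter. ABCA2, a lipid transporter, rose by 0.71 (limma adjusted p = 0.0211), and MCOLN2, a relative of MCOLN1, fell by 0.53 on the log2 scale (difference -0.53, limma adjusted p = 0.043). The call of ABCA2 ended without the 48 h or the 96 h arrays, and that of MCOLN2 in 5 of 14 alternatives, among them without the time block. CD68, listed both here and as a macrophage marker, stood at 0.49 (limma adjusted p = 0.086), and the part of other cells or of maturing cells in these results was not tested.

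**Figure D5:**
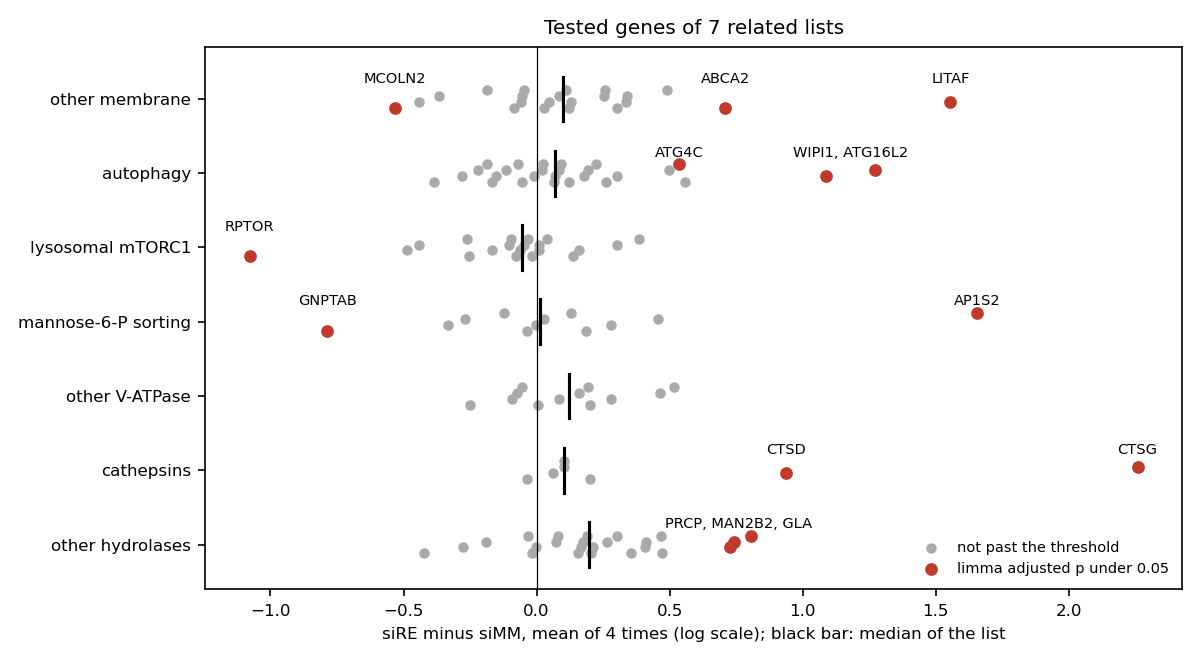
siRE minus siMM as the mean of the 4 times (log scale, horizontal axis) for the tested genes of 7 related lists, 1 list per row, with genes of a limma adjusted p under 0.05 in red and named, and the list median as a black bar. The medians lie between -0.05 and 0.20, and CTSG at 2.26 and RPTOR at -1.08 are the outermost genes.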

How the data were processed

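Per the labels' protocols, biotin-labelled cRNA of 8 Kasumi-1 samples was read on Illumina bead arrays. The values used are the authors' deposited normalized values, read as log2 from their range of 3.89 to 14.36; the submitters' processing notes name lumi, and whether the scale is plain log2 or variance-stabilised no source used here gives. Sorted, each array held nearly the same values as the next (largest gap 0.0235), so a shift shared by most transcripts is not visible, and no further normalization was applied. A second, non-normalized data set has 16 columns, which were not used, because no label ties them to samples, so the alternative that starts from it was not run.

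Probes above 5.9 on 2 or more of 8 arrays were tested with limma 3.58.1 in R 4.3.3 (lmFit and eBayes; siRNA and time as factors; 3 residual and 8.16 prior degrees of freedom; Benjamini-Hochberg over 14644 probes, threshold 0.05). The change with day had 2 and the siMM slope 4 residual degrees of freedom. Arrays of both arms at the same time, given by the labels, form the pairs, and their deviations from each arm's mean correlated at 0.375, 0.292, 0.212 and 0.0724 for 48, 96, 168 and 240 h. Arrays of different times correlated at -0.32 to 0.198. The 240 h pair lay within that range and the 168 h pair just above it. Each gene is represented by its brightest tested probe; symbols are from the platform annotation and chromosomes from RefSeq (GRCh38.p14). Where a gene was below 5.9 on every array of an arm, the bound sets each array of that arm to at least 5.9. The fits were tested on simulated data. The main fit recovered 99% of changes of 1 on the log2 scale and 100% of changes of 2. The test of the change with day recovered 3% of slopes of 0.1 per day and 98% of slopes of 0.3. It can therefore miss most slopes near 0.1 per day.

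The genes and lists were chosen with earlier results of these data known. Values on every array are printed for genes past the threshold, for the 10 next in size of difference, and for TFEB and SQSTM1; of each related list, the genes past the threshold, at most 4. RUNX1T1, CD34, KIT, MPO and CD68 are named as target or markers. The number of arrays limits the precision, and the labels name no batch.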

Additional observations from a re-analysis of the deposited data

Results flagged for a closer look

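The difference of LAPTM5 between the siRNAs changed with day, by 0.189 per day on the log2 scale (limma adjusted p = 0.0471), from 0.97 at 48 h to 2.55 at 240 h. Day and repeated electroporation cannot be told apart in it. In 4 of 56 groups of 4 arrays, the lowest array lay far from the others by Dixon's ratio, and chance gives about 1 in 20 such groups. The 4 arrays of a group are different times and not replicates, so that rate holds only where a level does not change with time. LIPA in siRE read 8.56 at 48 h, and its other 3 arrays lay close to the highest, 9.02. MAN2B1 in siRE read 8.14 at 48 h, against 9.18 to 9.34, and GM2A in siMM read 6.19 at 48 h, against 6.65 to 6.69. ATP6V1A in siRE read 9.72 at 96 h, against 10.04 to 10.10.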

How the results depend on the processing

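Beside 4 higher and 0 lower lysosomal genes, the alternatives gave 8 higher over probes above 5.9 on all 8 arrays, 7 in the robust fit with an intensity trend, 2 with values below background set to 5.9, 2 without the time block (no replicate block), and 1 to 6 when both arrays of 1 time were left out. The count was 1 without 96 h and 1 without 168 h. The added genes with the stricter filter were NPC2, ASAH1, NEU1 and GLB1. The count of lower genes was 0 in all 14 alternatives. The calls over all probes moved too, from 479 higher and 410 lower. They were 559 and 523 over probes above 5.9 on all 8 arrays, and 634 and 656 in the robust fit. Without the time block they were 315 and 215, and with values set to 5.9 they were 279 and 186. Leaving out a time gave 162 to 579 higher and 89 to 596 lower. Of 11 higher and 3 lower genes in the related lists, 7 were higher with values set to 5.9, and leaving out a time gave 4 to 15 higher and 1 to 3 lower. The change with day called 4 of the 27 genes and 387 probes in the robust fit, against 1 and 139, and 0 to 3 genes and 38 to 402 probes when a time was left out. The siMM slope called 0 genes in each of these runs. Leaving out a time leaves fewer arrays, and the cause of the other changes was not tested. Of the 27 genes' single values under the alternatives, 344 kept direction and side of the threshold, 13 lost a call, 10 gained one and 8 turned direction. The median of the tested genes ranged from 0.24 to 0.35. Directions turned for 3 genes: IDS at 0.019 with cyclic loess and from -0.080 to 0.034 with a time left out, ARSA at -0.0016 with array weights and from -0.104 to 0.135 with a time left out, and ACP2, at -0.28 otherwise, at 0.0057 with values set to 5.9. ACP2 and ARSA were near background. Without the time block the calls of GRN and TPP1, MAN2B2, ATG4C, MCOLN2 and LITAF ended.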
